A study of Mus musculus with 6 samples.

Results

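The calponins and the smooth muscle contractile genes were followed in double-positive thymocytes with and without the transcription factor Ets1. The 8 genes were Cnn1, Cnn2, Cnn3, Tagln, Tagln2, Acta2, Myh11 and Myl9, taken from 22180 genes measured. Cnn1 was picked because of its large difference between the groups, so the group was chosen from the same contrast described here. The differences of the 8 genes are therefore given as a description, without p-values. Each of 7 genes had 1 probe set naming it alone. Tagln2 had a pair of such probe sets, and the brighter over the 6 arrays was used.

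RNA from C57BL/6 mice aged 5 to 6 weeks was hybridised to 6 Affymetrix arrays, with 3 arrays for each genotype (wild type and Ets1-/-). The cells were thymocytes carrying both CD4 and CD8, crosslinked with formaldehyde and then enriched on magnetic beads for CD8 and afterwards for CD4. Litter-mate cohorts served as biological replicates per the labels, which do not say whether an array held 1 mouse or a pool. The sources used here do not describe the Ets1 allele further.

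Calponins and transgelins are small actin-binding proteins that share a calponin homology domain. In smooth muscle, Cnn1 binds the thin filament and restrains the myosin ATPase, while Acta2 forms the filament and Myh11 with Myl9 the motor. This set is switched on together by serum response factor (Srf) with its coactivator Myocd, through a DNA element called the CArG box. Cnn2 and Tagln2 are the relatives found in leukocytes, and Cnn3 is found in many tissues outside muscle.

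Cnn1 was higher in the Ets1-/- arrays by 6.37 on the log2 scale, and none of the other 7 genes was higher by more than 0.25. Among those 7 genes, the differences ran from -1.59 for Cnn3 to 0.25 for Tagln2, with a median of -0.23. The median over all 22180 genes was -0.22. The values of Ets1-/- replicate 1 lay lower as a whole, with a median over its probe sets of 3.66, where the remaining arrays had 4.19 to 4.33. Once arrays were centred on their medians the median over all genes was -0.01, and 4 of the 7 genes lay below 0 and 3 above.

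Of the 8 genes, 1 (Cnn1) passed limma's threshold in the upward direction, where 1.29% of all genes did so. In the downward direction 0 of the 8 passed, where 0.568% of all genes passed. Since this contrast chose the genes, nothing is read from these counts. These shares come from 287 genes higher and 126 lower, and they were 484 higher and 423 lower with a pseudocount of 16 added on the linear scale. With quantile normalization before that pseudocount they were 754 and 596. When 1 array was omitted, 145 to 276 were higher and 38 to 103 lower, with the fewest higher without Ets1-/- replicate 2 (145) or 3 (176). The lower genes were 38 to 45 without any 1 wild-type array or without Ets1-/- replicate 2, and 62 with a replicate block. In Cnn1 the 3 Ets1-/- values all lay above the 3 wild-type values, as in 5.76% of all genes. In Cnn3, Tagln and Myh11 the Ets1-/- values all lay below, as in 16.1% of all genes. After median centring Myh11 overlapped, so 1 gene lay above (11.2% of all genes) and 2 lay below (9.30%).

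**Figure D1:**
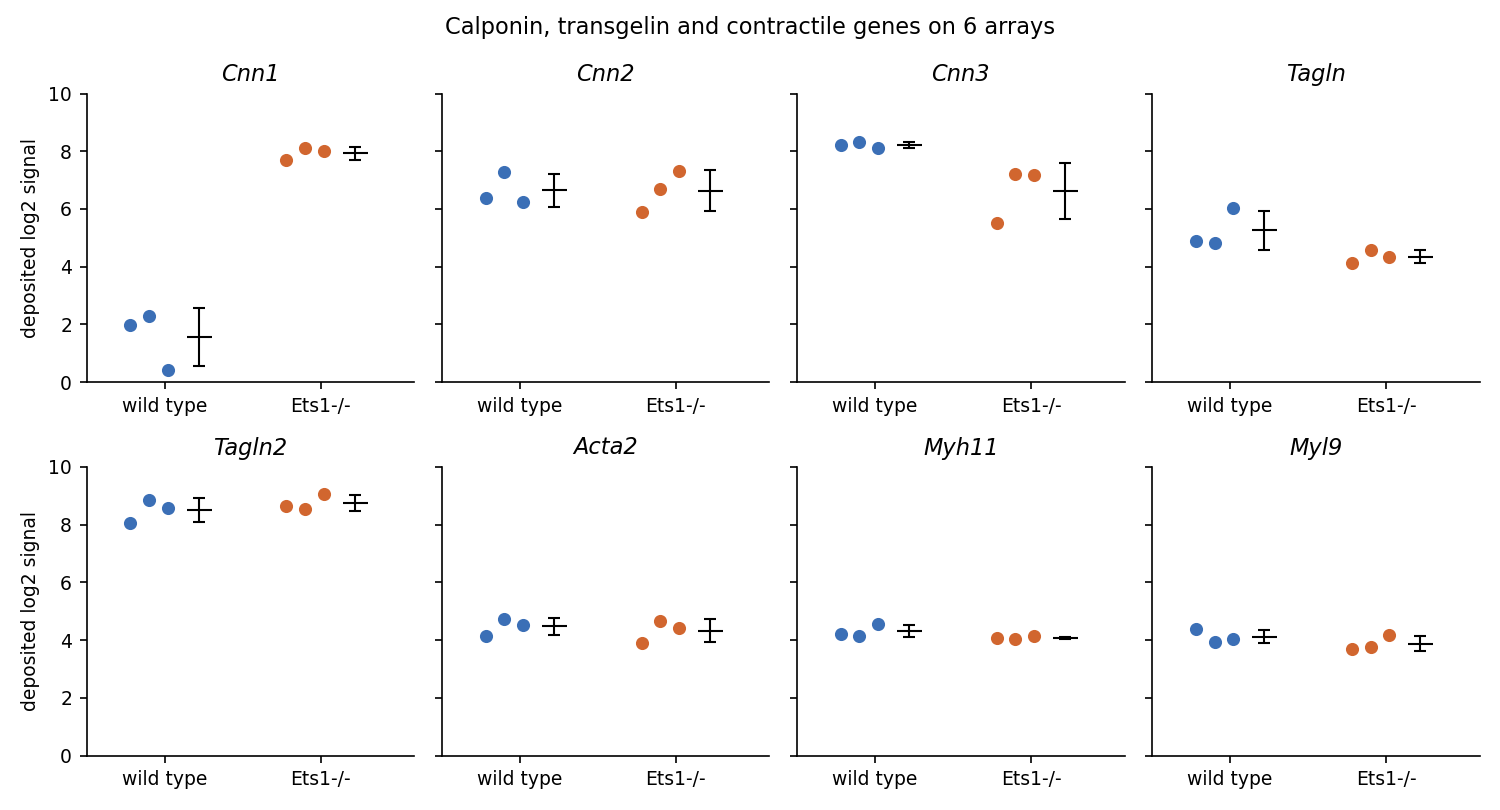
Deposited log2 signal of each of the 8 genes on the 3 wild-type (blue) and 3 Ets1-/- (orange) arrays, with the mean and SD beside the points. Cnn1 lies between 0.41 and 2.31 in wild type and between 7.68 and 8.12 in Ets1-/-, while for the other 7 genes the group means differ by at most 1.59.

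Cnn1, the calponin of differentiated smooth muscle, had log2 signals of 1.97, 2.31 and 0.41 in wild-type replicates 1 to 3. In Ets1-/- replicates 1 to 3 the signals were 7.68, 8.12 and 7.99. All 3 Ets1-/- arrays were high and close together, and the wild-type arrays were low, with replicate 3 the lowest. The group means were 1.56 ± 1.01 and 7.93 ± 0.23 (SD, n = 3 each), a log2 difference of 6.37 ± 0.47 (limma SE). On the linear scale the ratio was 82.8, and it was 13.5 with a pseudocount of 16 (log2 difference 3.75), so its size depends on the low end of the scale. In wild type Cnn1 lay below the median of all probe sets on every array, and in Ets1-/- above it on all 3.

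The bases before the Cnn1 start are shown because Cnn1 is the gene that moved and Ets1 belongs to a family that recognises GGAA. The stretch is the 250 bases upstream of the RefSeq start in GRCm38.p6 (chr9:22099003-22099252, plus strand), with GGAA in capitals.

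Cnn1 upstream: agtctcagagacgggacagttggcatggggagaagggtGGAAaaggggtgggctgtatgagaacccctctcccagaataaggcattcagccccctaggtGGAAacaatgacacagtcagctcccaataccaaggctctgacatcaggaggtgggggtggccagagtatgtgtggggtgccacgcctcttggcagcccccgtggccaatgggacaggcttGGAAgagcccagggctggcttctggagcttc

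Searched on both strands, the stretch held 3 matches. In the full window of 300 bases, which adds 50 bases after the start, Cnn1 had 4 matches, where the median over 32851 RefSeq promoter windows was 3. At least 1 match stood in 96.0% of those windows, so a match is common. The longer form CCGGAA, searched on both strands, stood in 14.9% of all windows and in 0 of the 6 windows found for these genes. Those 6 belong to Acta2, Cnn1, Cnn2, Cnn3, Myl9 and Tagln2. The matches are letters in a sequence, and no binding was measured.

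Cnn2, the calponin found in leukocytes, had signals of 6.40, 7.28 and 6.25 in wild type and 5.91, 6.69 and 7.31 in Ets1-/-. The groups overlapped fully, and the spread within each was larger than the difference. The means were 6.64 ± 0.56 and 6.64 ± 0.70 (SD, n = 3 each), with a difference of -0.01 ± 0.42 (limma SE; 95% interval -0.99 to 0.97). A change of up to about 1 in either direction lies within this interval and is therefore not excluded with this number of arrays.

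Cnn3, the calponin expressed widely outside muscle, had signals of 8.22, 8.33 and 8.11 in wild type and 5.50, 7.22 and 7.17 in Ets1-/-. All 3 Ets1-/- arrays were lower, and replicate 1, the array whose values lie lower as a whole, was by far the lowest. The difference was -1.59 ± 0.46 (limma SE; 95% interval -2.64 to -0.53, not adjusted for the number of genes). It was -1.38 after median centring and -1.02 without Ets1-/- replicate 1. Cnn1 and Cnn3 thus differed in opposite directions, and Cnn2 lay between them.

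**Figure D2:**
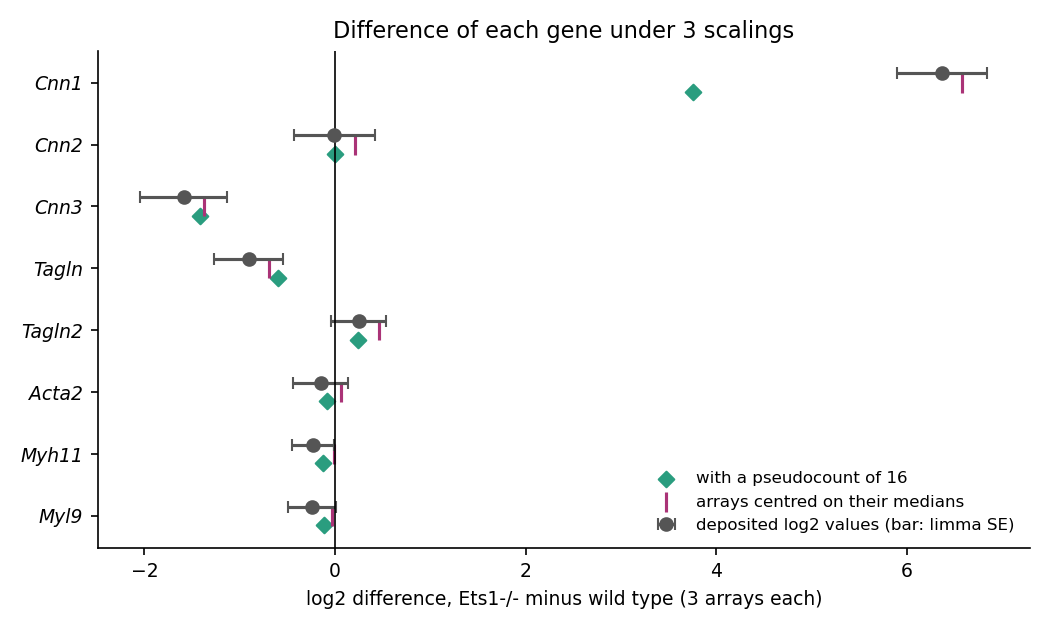
Log2 difference (Ets1-/- minus wild type, 3 arrays each) for each gene on the deposited values (circle, with limma SE), with a pseudocount of 16 (diamond) and after median centring (tick). Cnn1 moves from 6.37 to 3.75 with the pseudocount and to 6.58 with centring, and Cnn3 and Tagln lie below 0 under all 3.

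Tagln, the transgelin of smooth muscle also called SM22 alpha, had signals of 4.90, 4.82 and 6.05 in wild type and 4.13, 4.57 and 4.35 in Ets1-/-. All 3 Ets1-/- arrays were lower, opposite to Cnn1, but wild-type replicate 3 stood more than 1 log2 unit above the other wild-type arrays. The difference was -0.91 ± 0.36 (limma SE; 95% interval -1.74 to -0.07, not adjusted for the number of genes), and it was -0.51 without that array.

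Tagln2, the transgelin of leukocytes, had signals of 8.06, 8.87 and 8.60 in wild type and 8.64, 8.55 and 9.07 in Ets1-/-. The groups overlapped, with means of 8.51 ± 0.41 and 8.76 ± 0.28 (SD, n = 3 each). The difference was 0.25 ± 0.29 (limma SE), and the second probe set of the gene gave 0.40, from 7.13 ± 0.52 to 7.52 ± 0.36 (SD, n = 3 each). Both probe sets of Tagln2 differed by less than their SD in wild type.

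Acta2, the actin of smooth muscle, had signals of 4.16, 4.75 and 4.53 in wild type and 3.89, 4.67 and 4.43 in Ets1-/-. The groups overlapped and the difference was -0.15 ± 0.29 (limma SE; 95% interval -0.82 to 0.52), turning to 0.06 after median centring. Cnn1 binds this filament in smooth muscle, and a rise of the size seen for Cnn1 lies far outside that interval.

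Myh11, the smooth muscle myosin heavy chain, had signals of 4.23, 4.15 and 4.55 in wild type and 4.07, 4.05 and 4.13 in Ets1-/-. The Ets1-/- values were tightly grouped just under the lowest wild-type value. The difference was -0.23 ± 0.22 (limma SE; 95% interval -0.74 to 0.29), the same size as the shift of all genes, and -0.02 after centring.

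Myl9, a regulatory light chain of smooth muscle myosin, had signals of 4.38, 3.95 and 4.04 in wild type and 3.69, 3.77 and 4.19 in Ets1-/-. The groups overlapped, and the difference was -0.24 ± 0.25 (limma SE; 95% interval -0.82 to 0.34), or -0.03 after centring. Myh11 and Myl9 each lay above the array's median of all probe sets on 3 of 6 arrays, and Acta2 on 5. These signals sit in the middle of all probe sets, and the deposited table gives no call of presence, so detection of the 3 genes was not tested.

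The CArG box was searched on both strands in its strict form only: CC, then 6 bases of A or T, then GG. This form stood in 1.63% of all promoter windows (535 of 32851) and in 2 of the 6 found here. Boxes that depart from it by a base were not counted, and no window was found for Tagln or Myh11. The pair is shown because Srf acts on the smooth muscle program through this element. The box is in capitals with 10 bases on either side, on the plus strand of GRCm38.p6 (RefSeq). The Cnn2 stretch lies at chr10:79988534-79988563, with its box beginning 56 bases before the start. The Myl9 stretch lies at chr2:156775293-156775322, with its box beginning 161 bases before the start.

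Cnn2: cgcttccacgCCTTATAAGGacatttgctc

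Myl9: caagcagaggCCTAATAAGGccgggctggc

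The Cnn1 window held no CArG box of this strict form, and neither gene with one in its window differed by more than 0.24 between the groups. No match says only that these letters are absent from this window.

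The rest of the smooth muscle program was examined in a list of 22 partners, of which 20 were measured. By limma, 0 rose and 0 fell (1 at an unadjusted p under 0.05), and 0 passed with a pseudocount of 16. The share of all genes at the unadjusted cut-off was not counted, so nothing is read from counts at it, here or below. With 3 arrays a group, a count of 0 does not show that no gene changed. Their median difference was -0.23, beside -0.22 for all genes. Actg2, the enteric smooth muscle actin, was the partner with the smallest p. Its signals were 3.24, 2.96 and 3.71 in wild type and 5.36, 4.45 and 6.40 in Ets1-/-. All 3 Ets1-/- values were higher, with a difference of 2.10 ± 0.48 (limma SE; adjusted p = 0.0861). Actg2 passed under 4 alternatives, with adjusted p = 0.0464 after the filter on dim genes, 0.00378 with an intensity trend and robust prior, 0.0483 with array weights and 0.0368 with a replicate block. Over the fits that omitted 1 array the adjusted p of Actg2 was 0.0503 to 0.246. In wild type Actg2 lay below the median of all probe sets on every array, and in Ets1-/- above it on all 3. Only its Ets1-/- signals can therefore have kept it past the filter on dim genes, and nothing is read from that pass.

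The next partners by p lay below 0. Tpm1, a tropomyosin, Hspb6, a small heat shock protein of smooth muscle, and Csrp1, a LIM protein, had differences of -0.59, -0.58 and -0.42 (limma adjusted p = 0.429, 0.441 and 0.604). The muscle intermediate filament gene Des averaged 4.23 ± 0.51 in wild type against 3.82 ± 0.49 without Ets1 (SD, n = 3 each; limma adjusted p = 0.640). Their groups overlapped except for Tpm1, whose Ets1-/- values all lay lower.

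The regulators of this program were examined next. Of 14 measured genes, 0 rose and 1 fell by limma (2 at an unadjusted p under 0.05). Under 8 of 16 alternatives, the pseudocount of 16 among them, 1 rose and 1 fell. The gene that fell was Elk3, an ETS-family partner of Srf. Its signals were 7.47, 7.95 and 7.74 in wild type and 5.87, 6.25 and 6.64 in Ets1-/-, and the groups did not overlap. The difference was -1.46 ± 0.28 (limma SE; adjusted p = 0.0472), and the call was lost whichever array was left out, with an adjusted p of 0.0576 to 0.172.

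Srf itself averaged 7.13 ± 0.15 in wild type against 6.56 ± 0.32 without Ets1 (SD, n = 3 each), a difference of -0.57 (limma adjusted p = 0.391). Its coactivator Myocd had a difference of -0.13 (limma adjusted p = 0.858). Smad3, which carries TGF-beta signals, had a difference of 0.98 ± 0.21 (limma SE; adjusted p = 0.0721) and was the 1 that rose under those 8 alternatives (adjusted p from 0.00236 to 0.0274). It did not pass with the mean of probe sets, the replicate block or the omission of any 1 array (0.0595 to 0.252). Elk1, another ETS partner of Srf, had a difference of -0.48 (limma adjusted p = 0.606).

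The nonmuscle actomyosin that thymocytes themselves use gave 1 gene that rose and 2 that fell of 26 measured by limma, with a median of -0.12. At an unadjusted p under 0.05 there were 9, with no share of all genes to set beside them. The counts that rose and fell were 4 and 2 with the pseudocount, and 4 and 5 with quantile normalization before it or with an intensity trend. They were 0 and 0 with a replicate block. The macrophage gelsolin relative Capg rose by 1.57 ± 0.28 (limma SE; adjusted p = 0.0390), from 4.71 ± 0.46 to 6.28 ± 0.13 (SD, n = 3 each). The leukocyte actin-binding gene Lsp1 fell by 1.25 ± 0.22 (adjusted p = 0.0348) and the focal adhesion gene Zyx fell by 1.39 ± 0.26 (adjusted p = 0.0474). None of the 3 calls held whichever array was left out. Capg was called only without wild-type replicate 2 (otherwise up to 0.137), Lsp1 only without Ets1-/- replicate 1 (otherwise up to 0.144; also lost after median centring, 0.114) and Zyx in none of the fits that left out 1 array (up to 0.179).

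Vim, an intermediate filament of mesenchymal and myeloid cells, had a difference of 1.32 ± 0.30 (limma SE; adjusted p = 0.0833) and passed under 7 of 16 alternatives (adjusted p from 0.000473 to 0.043), including the pseudocount (1.23, adjusted p = 0.0204). It did not pass when any 1 array was omitted (0.112 to 0.227). Actb and Myh9, the main nonmuscle actin and myosin genes, had differences of -0.12 and -0.54 (limma adjusted p = 0.822 and 0.333). Neither of these abundant genes passed the test.

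The 13 measured paralogs, most of them from striated muscle, had 0 that rose and 0 that fell by limma (2 at an unadjusted p under 0.05), with a median of -0.55. Mylpf, the fast skeletal light chain, and Actc1, the cardiac actin, had differences of -0.74 and -0.51 (limma adjusted p = 0.270 and 0.374). Myl4, the atrial light chain, had a difference of 1.25 (limma adjusted p = 0.444) and Myh7, the slow myosin, of -0.67 (adjusted p = 0.466). Without wild-type replicate 3, 1 of the 13 fell.

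**Figure D3:**
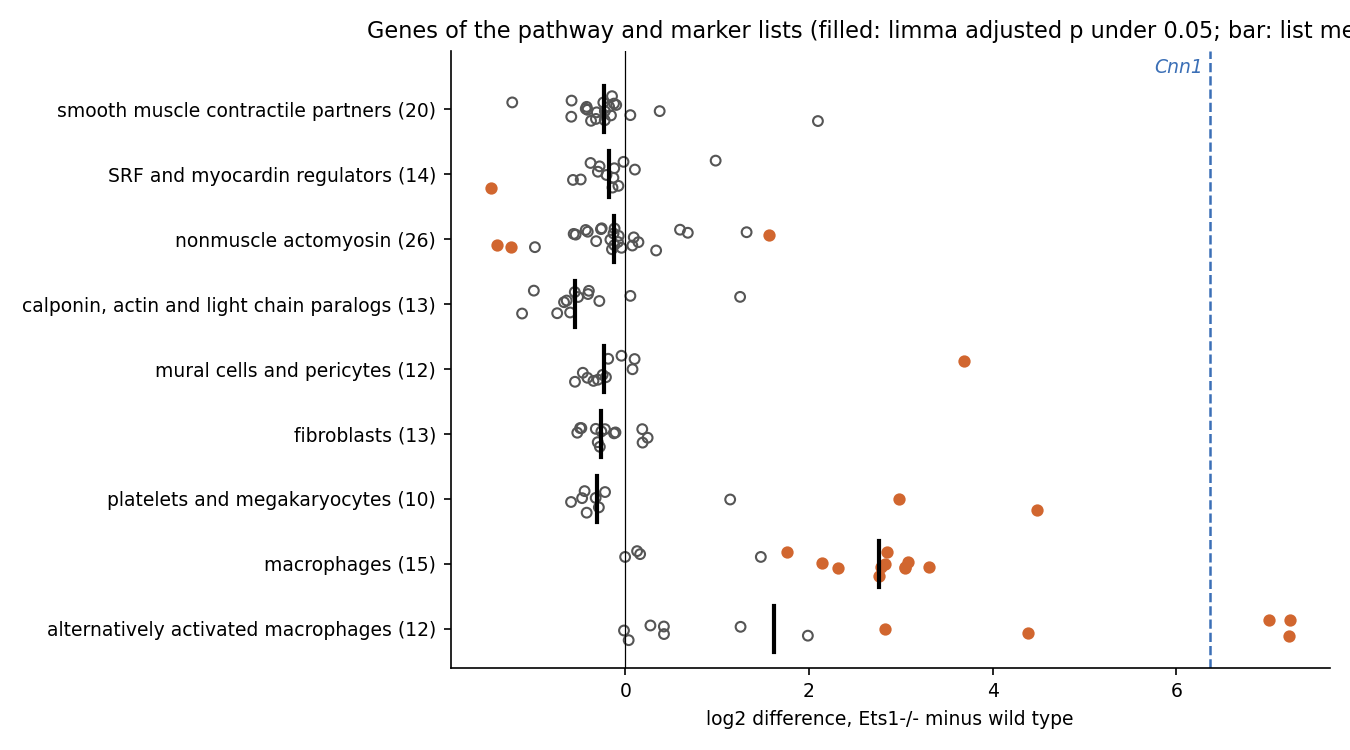
Log2 difference (Ets1-/- minus wild type) of each measured gene in 9 lists, with the number of genes in brackets, filled where limma's adjusted p was under 0.05, a bar at each list's median and a dashed line at Cnn1 (6.37). The 20 contractile partners lie between -1.23 and 2.10, while 3 genes of alternatively activated macrophages lie beyond Cnn1.

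Cell types that normally carry Cnn1 were looked for through their markers. Of 12 mural-cell and pericyte markers, 1 rose and 0 fell by limma, with a median of -0.23. The gene that rose was Anpep, a peptidase that myeloid cells also make, by 3.68 ± 0.47 (limma SE; adjusted p = 0.00823). Ndufa4l2 and Pdgfrb of the same list had differences of -0.55 and -0.46 (limma adjusted p = 0.516 and 0.591). The summed mural signal ran from log2 7.42 to 7.56 in wild type and from 7.37 to 8.60 in Ets1-/-. No marker is at 0 on this scale, and the median marker had a wild-type signal of 3.60, under the medians of all probe sets on the wild-type arrays (4.21 to 4.33).

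Of 13 fibroblast markers, 0 rose and 0 fell (limma; 0 at an unadjusted p under 0.05), with a median of -0.26. Col1a1 had a difference of -0.49. Their summed signal, most of it from Thy1, which thymocytes share, was 10.9 to 11.1 in wild type and 10.6 to 10.8 in Ets1-/-. The mesothelial list gave 0 called of 8 (1 at an unadjusted p under 0.05) and a median of -0.39. In bulk samples, fewer cells of a type and less RNA per cell cannot be told apart.

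Platelets carry Myl9 and Tagln2, and 2 of 10 platelet markers rose with 0 that fell (limma). Pf4, a chemokine of platelets, rose by 4.48 ± 0.51 (limma SE; adjusted p = 0.00502), from signals of 1.85, 1.52 and 0.14 to 5.33, 5.21 and 6.42. Its difference was 1.86 with a pseudocount of 16 (limma adjusted p = 0.00427), so its size depends on the low end of the scale. Clec1b, a lectin receptor of platelets and some myeloid cells, rose by 2.98 ± 0.26 (adjusted p = 0.00177). With a pseudocount of 16, 3 rose, the added gene being Itgb3, by 0.68 (limma adjusted p = 0.0172). Itgb3 did not pass when any 1 array was omitted (0.0641 to 0.196). The list's median was -0.30, and its summed signal was 7.12 to 7.40 in wild type and 8.001 to 8.301 in Ets1-/-. Neither Myl9 nor Tagln2 passed the test, and the part of platelets in these signals was not tested.

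Macrophages were examined as well, and most of their markers were higher in the Ets1-/- arrays. Of 15 measured, 11 rose and 0 fell by limma, with a median of 2.77, and 9 to 10 rose when any 1 array was left out. Their summed signal was 9.62 to 9.91 in wild type and 11.97 to 12.42 in Ets1-/-. Csf1r, the receptor that sustains macrophages, was higher by 3.31, and Ctss and C1qa by 2.78 and 2.85 (limma adjusted p = 0.00140, 0.00197 and 0.00232).

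The list of alternatively activated macrophages, some of whose genes were known to be high in these data when it was drawn up, had 5 of 12 that rose and 0 that fell, with a median of 1.62. Its summed signal was 8.82 to 9.21 in wild type and 12.5 to 13.4 in Ets1-/-. Ccl24, Ccl8 and Retnla exceeded the difference of Cnn1. The B-cell list had 5 of 10 that rose (summed signal 6.31 to 6.77 and 8.57 to 9.55) and the dendritic-cell list 5 of 10 (8.68 to 8.87 and 11.6 to 11.7), with 0 that fell in either. The B-cell count was 3 without wild-type replicate 1 or Ets1-/- replicate 3, and 2 after the filter on dim genes. It was 8 with median centring, cyclic loess or an intensity trend, and 9 with array weights. The part of these cells in the rise of Cnn1 was not tested.

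The profiles nearest to that of Cnn1 were found by the root mean square difference over the 6 arrays, after each gene was centred on its own mean. The nearest 6 named genes were Iglv1, Ccl8, Igkv5-43, Mmp12, Ccl24 and Nt5e, at 0.43, 0.52, 0.66, 0.76, 0.79 and 0.88 log2 units from Cnn1. Iglv1 and Igkv5-43 encode antibody light-chain segments, Ccl8 and Ccl24 chemokines, Mmp12 the macrophage elastase and Nt5e the ectoenzyme CD73. Their Pearson correlations with Cnn1 were 0.97 to 0.99 over 6 arrays that fall into 2 groups, so the likeness is mainly that of a large group difference. None of the 6 is a contractile gene. The 8 genes followed here were left out of the ranking, and only genes with a large group difference could come near Cnn1. Nothing is therefore read from the absence of contractile genes.

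**Figure D4:**
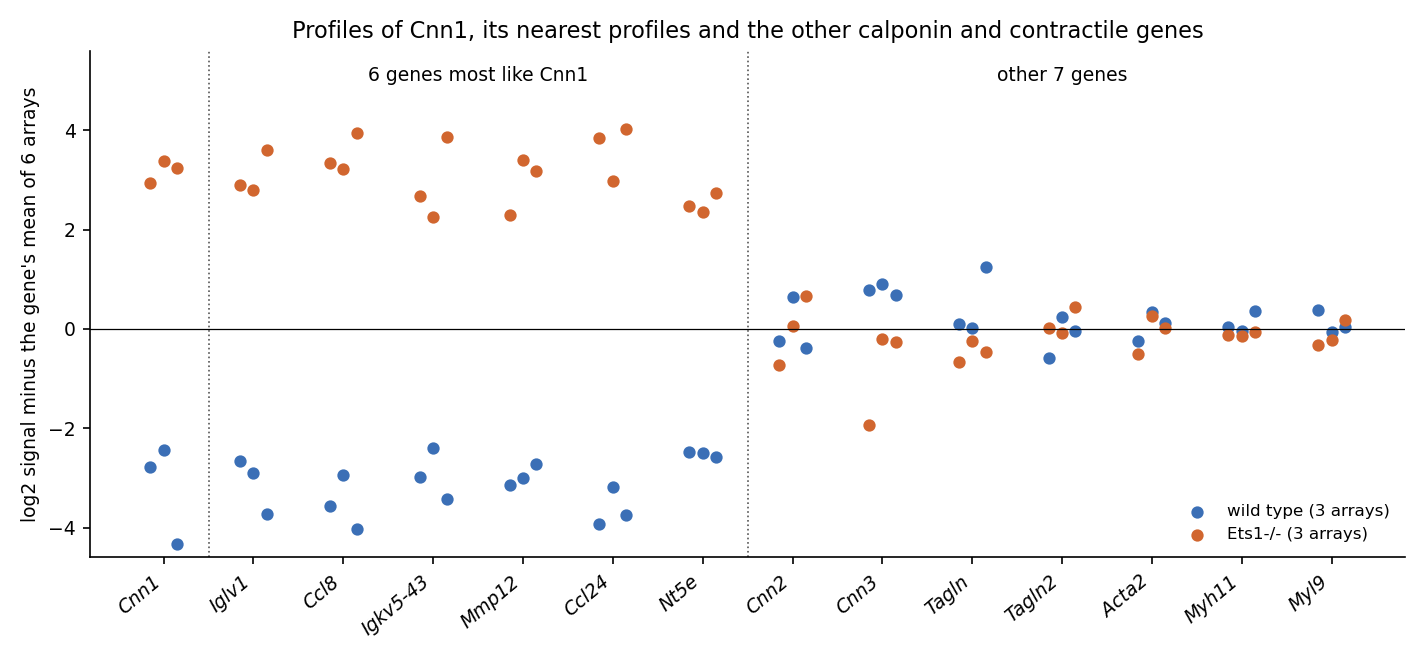
Log2 signal of each gene minus its own mean of 6 arrays, for Cnn1, the 6 genes nearest to it and the other 7 calponin and contractile genes (blue: 3 wild-type arrays, orange: 3 Ets1-/- arrays). Cnn1 and its 6 neighbours in profile separate by 5.04 to 7.24 log2 units between group means, and the other 7 genes by at most 1.59.

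Cnn1 and Ets1 both lie on chromosome 9, as does Tagln, so the genes around Cnn1 were examined too. Of the 5 protein-coding genes on each side, all 10 were measured and 0 were called by limma (1 at an unadjusted p under 0.05). Their differences ran from -0.48 to 0.86. The adjacent genes Ecsit and Elof1 had differences of 0.03 ± 0.32 and 0.86 ± 0.27 (limma SE; adjusted p = 0.972 and 0.214). Acp5, the tartrate-resistant phosphatase of osteoclasts and macrophages, lies next to Elof1 and had a difference of 0.19 (adjusted p = 0.757). Of 46 measured coding genes between Cnn1 and Ets1, 0 were called (6 at an unadjusted p under 0.05), with a median of -0.18. Over all genes 1.29% were called higher and 0.568% lower, so 0 called among so few genes says little. The share of all genes at the unadjusted cut-off was not counted. The genes around Cnn1 and between it and Ets1 were chosen by position after the values of Cnn1 were known.

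The Ets1 signal itself averaged 9.20 ± 0.11 in wild type against 9.09 ± 0.27 without Ets1 (SD, n = 3 each). The difference was -0.10 ± 0.23 (limma SE; adjusted p = 0.860). Where its probe set lies relative to the deleted part is unknown, so this does not check the labels. Of 12 double-positive thymocyte markers, 1 rose (Ptcra, by 1.50; limma adjusted p = 0.0282) and 0 fell. Their summed signal was 14.29 to 14.36 in wild type and 14.31 to 14.39 in Ets1-/-, so the labelled cell type was seen in both groups. When 1 array was omitted, Ptcra was called only if that array was Ets1-/- replicate 1 (otherwise adjusted p up to 0.116).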

How the data were processed

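The authors deposited log2 signals for 41345 probe sets on 6 arrays; the values themselves (-15.86 to 16.36, with 1.63% below 0) show this scale. Per the submitters' processing notes affy was used; the sources used here do not give background correction, normalization or genome build. No values of depth exist for arrays, whose number limits the precision.

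Platform annotation named 1 gene for 23521 probe sets, several for 1814 and none here for 16010. For each of 22180 genes the probe set with the highest mean over 6 arrays was taken; 21994 matched RefSeq GRCm38.p6 by gene identifier. Ets1-/- minus wild type was fitted across all genes with limma 3.58.1 in R 4.3.3 (two-sided, no covariate), with Benjamini-Hochberg adjustment and a threshold of 0.05; its p-values measure only the spread between these arrays. No filter on dim genes was used. The fit was tested on simulated data. Tables and plots used Python 3.11.15, pandas 2.3.3 and matplotlib 3.10.9.

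The 8 genes and the lists were chosen with earlier results of these data known. The text names the 8 genes, up to 4 genes with the smallest p from each list of the pathway and up to 3 from each list of markers, Srf, Myocd, Actb, Myh9, Vim and Des, Ets1, and the 6 genes nearest to Cnn1 in profile (clone, Riken and Gm names skipped). The neighbours of Cnn1 and Acp5 were added after the data were seen. Lists of thymic epithelium, endothelium, striated muscle, neutrophils, erythroid cells and mature T cells were also counted. Alternatives were other probe-set summaries, normalizations, a pseudocount of 16, a filter, variance models, array weights, a replicate block and the omission of each array.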

Additional observations from a re-analysis of the deposited data

How the results depend on the processing

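Cnn1 was higher and past limma's threshold under all 16 alternatives, which reuse the arrays it was picked on and so lend it no support. Its difference was 3.75 with a pseudocount of 16 and 3.78 with quantile normalization before it, and 5.80 to 6.74 when 1 array was left out. A pair of settings gave 2 of the 8 genes past the threshold in place of 1: the pseudocount after quantile normalization, and array weights. The added gene was Cnn3, lower. The count over all genes, 413, was 907 with the pseudocount, 1350 with both, 745, 798 and 777 with median centring, quantile normalization and cyclic loess, 1172 with an intensity trend and robust prior, 1019 with array weights, and 190 to 379 without 1 array, where fewer arrays enter; otherwise the cause was not tested. The number lower was 264 with the filter on dim genes. Acta2 turned positive after centring, quantile normalization (with or without the pseudocount) or loess, and without Ets1-/- replicate 1 (0.07). Myh11 and Myl9 turned positive after loess. Cnn2 changed sign as well, from -0.34 without Ets1-/- replicate 3 to 0.36 without Ets1-/- replicate 1. Same-numbered arrays did not deviate together (correlations -0.07, -0.01 and -0.05). Whether the numbers match litters cannot be told from this, since noise of single arrays can hide a shared effect. A replicate block gave 311 genes and Cnn1 again as the 1 called of the 8. Under that block Elk3, Capg, Lsp1, Zyx, Tnnt1 and Ptcra lost their calls. Dim signals limit what can be said of Acta2, Myh11 and Myl9.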

Other observations

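Of 12 endothelial markers 0 were called by limma (4 at an unadjusted p under 0.05), with a median difference of -0.53. Nothing is read from the 4, since the share of all genes at that cut-off was not counted. The difference of Pecam1 was -1.26 (limma adjusted p = 0.1002). Pecam1 passed under 7 of 16 alternatives (limma adjusted p from 0.00314 to 0.0473), and the list had 2 that fell with an intensity trend or array weights. Of 14 striated muscle and thymic myoid markers 0 rose and 1 fell: Tnnt1, the slow skeletal troponin T, fell by 2.17 ± 0.42 (limma SE; adjusted p = 0.0498), and the call was lost whichever array was left out (adjusted p 0.0533 to 0.138). Of 9 genes of mature T cells 5 rose and 0 fell (3 rose without any 1 Ets1-/- array and 4 without any 1 wild-type array, 7 with the pseudocount or the filter on dim genes, and 8 with an intensity trend or array weights), with a median of 2.0, led by Klf2 and S1pr1 at 3.60 and 3.54 (limma adjusted p = 0.000578 and 0.00110). The thymic epithelial, neutrophil and erythroid lists gave 0 called of 11, 11 and 5 (2, 1 and 0 at an unadjusted limma p under 0.05).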
